A study of Homo sapiens with 4 samples.

Results

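Genes of cholesterol synthesis, of its control, and of sterol uptake, transport and export were examined in LNCaP cells transduced with ERG. The genes were taken by name, from a list of 28, and a gene entered through the probe sets that the platform annotation gives to it alone. In this way 27 of the 28 genes were measured, by 61 of the 39464 probe sets that name a single gene, among 19583 genes in all. FDFT1, the squalene synthase, was not analysed here. RNA came from LNCaP, an androgen-responsive human prostate tumor cell line, and was hybridised to Affymetrix GeneChip arrays. There were 2 arrays of LNCaP-ERG, from cells infected with a lentivirus encoding ERG together with red fluorescent protein (RFP), and 2 arrays of LNCaP-vector, from cells given the control lentivirus, which encodes RFP only. Both lines were kept in the same regular culture medium and plated the day before RNA was taken. The sources do not tell if the paired arrays of a line stem from independent cultures or infections. The p-values therefore cover only the spread among these arrays, and that spread may be technical.

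Cholesterol is built from acetyl-CoA. The early enzymes make mevalonate and turn it into isoprenoid units, which also serve protein prenylation and ubiquinone. The later enzymes join these units to squalene, close the ring to lanosterol and trim lanosterol to cholesterol. Most of these genes are switched on together by the SREBP transcription factors. SCAP carries SREBP out of the endoplasmic reticulum for activation when sterols are low, and the INSIG proteins hold SCAP back when sterols are high. INSIG1 is itself an SREBP target, so its RNA is commonly read as a gauge of SREBP activity, whereas INSIG2 is not driven by SREBP in this way. In prostate cancer cells, androgen is known to raise many SREBP targets.

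Before the values, the upstream sequences of 4 genes are given, because they belong to the 2 genes with the lowest and the 2 with the highest fold changes among those measured. They were chosen after the values were seen. Each is the 250 bases before a start of the gene in RefSeq (GRCh38.p14), read 5′ to 3′ along the gene. Capitals mark matches, on either strand, to the E-box CACGTG, the sterol response element-like motif CACNCCAC, the CCAAT box or the ETS core CGGAAG, which holds the GGAA of ETS factor sites.
INSIG1, chr7:155297628-155297877, plus strand: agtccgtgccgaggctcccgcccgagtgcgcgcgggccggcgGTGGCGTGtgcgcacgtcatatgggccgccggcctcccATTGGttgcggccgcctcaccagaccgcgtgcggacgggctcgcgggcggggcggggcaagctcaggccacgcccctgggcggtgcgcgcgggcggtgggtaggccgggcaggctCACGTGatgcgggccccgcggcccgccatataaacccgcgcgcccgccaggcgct
MVK, chr12:109573544-109573793, plus strand: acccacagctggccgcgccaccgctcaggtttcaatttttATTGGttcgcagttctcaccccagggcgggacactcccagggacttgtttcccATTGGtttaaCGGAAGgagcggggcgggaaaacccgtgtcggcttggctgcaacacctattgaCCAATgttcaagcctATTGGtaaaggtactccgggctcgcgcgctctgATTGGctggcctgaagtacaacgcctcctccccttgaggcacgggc
INSIG2, chr2:118088221-118088470, plus strand: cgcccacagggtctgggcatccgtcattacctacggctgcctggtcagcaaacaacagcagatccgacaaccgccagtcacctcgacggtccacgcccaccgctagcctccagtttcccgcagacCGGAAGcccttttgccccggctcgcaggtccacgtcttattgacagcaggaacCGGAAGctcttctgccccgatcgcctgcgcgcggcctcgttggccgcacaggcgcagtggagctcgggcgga
HSD17B7, chr1:162790452-162790701, plus strand: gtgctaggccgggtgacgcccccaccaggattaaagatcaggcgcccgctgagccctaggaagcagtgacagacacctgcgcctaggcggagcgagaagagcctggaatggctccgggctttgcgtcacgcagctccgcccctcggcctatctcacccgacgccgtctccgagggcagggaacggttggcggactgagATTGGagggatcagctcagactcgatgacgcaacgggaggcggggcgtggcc

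INSIG1 had a CACGTG match 55 to 50 bases before its start, a CACNCCAC match on the other strand 208 to 201 bases before it, and a CCAAT box, also on the other strand. INSIG2 has 2 windows, of which only the more upstream is printed. The printed window held 2 ETS core matches, at 125 to 120 and at 72 to 67 bases before that start, and none of the other motifs. The window of MVK, mevalonate kinase, held 5 CCAAT boxes and 1 ETS core match. That of HSD17B7, a sterol ketoreductase, held 1 CCAAT box. Over the 24 genes of the list with a window in the table (30 windows, as some genes have several starts), 63.3% of windows held a CCAAT box, against 32.0% of all 35116 windows. CACGTG was in 16.7% of them (5 windows, from 4 genes) and in 6.34% of all windows. CACNCCAC was in 16.7% of them (5 windows, from 5 genes) and in 4.87% of all windows. The ETS core was in 20.0% of them and in 16.5% of all windows. These matches are letters in a window and were not measured as binding sites.

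The 4 arrays were alike over all genes. The 2 LNCaP-ERG arrays differed with an SD of 0.185 on the log2 scale, the 2 vector arrays with an SD of 0.189, and arrays of different groups with SDs of 0.193 to 0.238. The 4 probe sets of ERG itself lay between 2.65 and 3.58 (log2 intensity) on every array, with log2 fold changes of -0.24 to 0.12, and so did not check the labels. Genes typical of other organs, which should be unused here, had log2 intensities with a median of 3.31, and their 95th percentile, 4.58, serves as the background level. Of 12 luminal prostate and LNCaP markers, 11 lay above it in both groups and TRPM8 did not. Of the 19 markers of basal, stromal, leukocyte and endothelial cells, COL1A1, ACTA2 and VWF lay above it in both groups, and the remaining 16, with KRT5, PTPRC and CDH5 among them, did not. Of the 7 stromal markers, COL1A1 was higher without overlap in LNCaP-ERG, at a log2 fold change of 0.38, and COL1A2 and DES, both below background, were lower, at -0.21 and -0.15 (median of the list -0.07). Of the 3 endothelial markers, VWF and PECAM1 were higher, at 0.30 and 0.32, PECAM1 below background, and CDH5 overlapped. Of the 6 leukocyte markers, CD68 was lower, at -0.15 and below background, and all 3 basal markers overlapped. Over all genes, 21.7% were higher without overlap and 19.1% lower. The part of these markers in the results was not tested. In the comparison of all genes by limma with Benjamini-Hochberg adjustment, 0.0102% of genes (2 of 19583) had an adjusted p under 0.05.

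None of the 27 cholesterol genes passed that threshold, and their adjusted p-values from limma ran from 0.368 to 0.999. On simulated arrays the same fit called 0.294% of the genes given a log2 change of 0.3. The lack of calls thus says little about changes of about that size or smaller. At an unadjusted p under 0.05 there were 2 genes higher and 4 lower in LNCaP-ERG, where 5.61% of all genes were higher and 4.11% lower by the same rule (5.93% and 4.91% of the 10705 genes above background in both groups). The differences were small: fold changes ran from 0.803 for INSIG1 to 1.21 for INSIG2. In direction they leaned one way. Both LNCaP-ERG arrays lay below both vector arrays for 15 of the 27, where 19.1% of all genes (23.3% of the 10705 genes above background in both groups) did so. Both lay above for 4, where 21.7% of all genes (23.7% of those above background) did so. The median log2 fold change was -0.09 over the 27 genes, 0.01 over all genes and 0.002 over the genes above background. The 27 genes differed by a median of 0.03 between the first and second LNCaP-ERG arrays and of -0.01 between the first and second vector arrays. No set test was made, so this lean is a description of these 4 arrays.

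**Figure D1:**
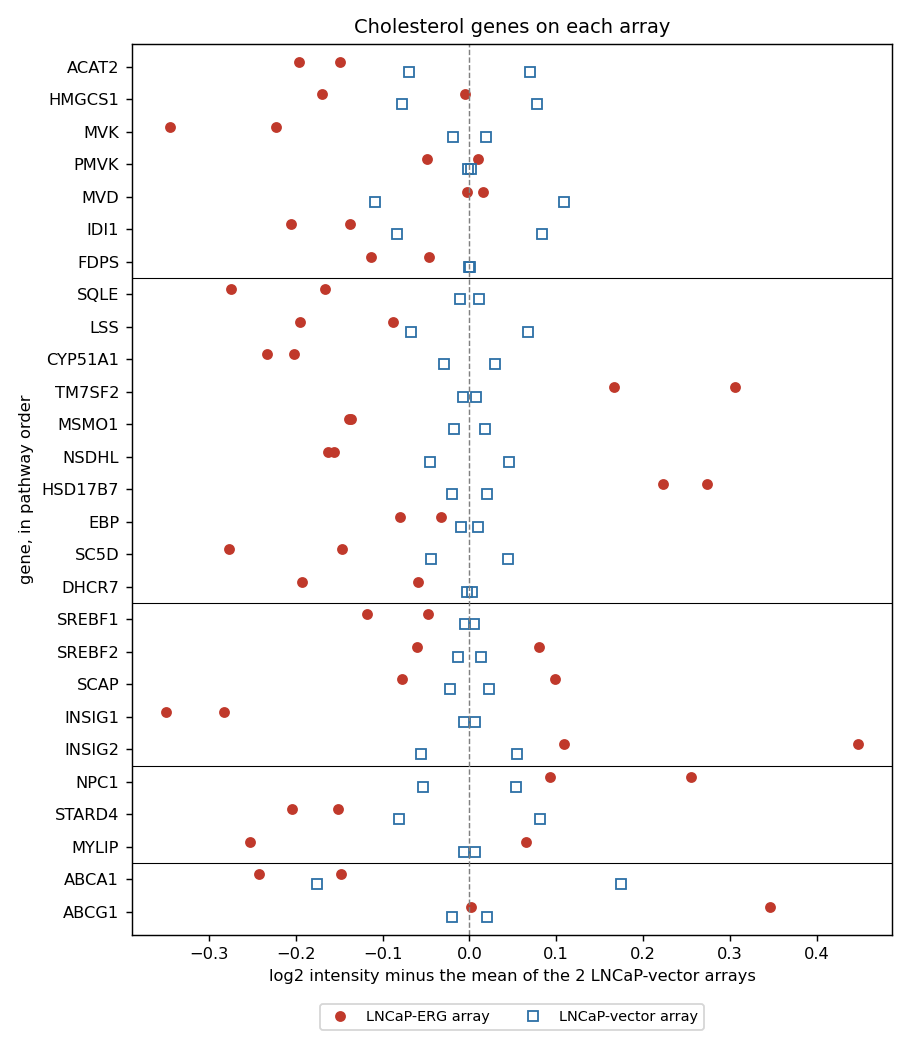
Log2 intensity on each array minus the mean of the 2 LNCaP-vector arrays (x axis) for the 27 measured genes (y axis, in pathway order, with lines between the roles). Filled circles are the 2 LNCaP-ERG arrays and open squares the 2 LNCaP-vector arrays. Both circles lie left of both squares for 15 genes and right of both for 4, TM7SF2, HSD17B7, INSIG2 and NPC1.

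Among the 7 genes of the mevalonate and isoprenoid steps, 4 were lower without overlap, none was higher without overlap, and 3 overlapped. By the same rule 19.1% of all genes were lower and 21.7% higher. ACAT2, which joins acetyl-CoA units, had log2 intensities of 8.06 and 8.11 in LNCaP-ERG, against 8.33 and 8.19 in LNCaP-vector (log2 fold change -0.17, standard error 0.09). HMGCS1, which makes HMG-CoA, had 8.21 and 8.04 in LNCaP-ERG, against 8.29 and 8.14 in LNCaP-vector. The groups of HMGCS1 overlapped, with a log2 fold change of -0.09 (95% interval -0.35 to 0.17). MVK, which phosphorylates mevalonate, had the lowest fold change of the enzymes, at 5.65 and 5.53 in LNCaP-ERG, against 5.85 and 5.89 in LNCaP-vector (log2 fold change -0.28, standard error 0.08, unadjusted p = 0.0184, adjusted p = 0.419 by limma). Its second probe set was below background, with -0.37 and overlapping groups. PMVK, the next kinase, overlapped, at 9.14 and 9.08 in LNCaP-ERG and 9.13 and 9.13 in LNCaP-vector. MVD, the decarboxylase, was below background in both groups, at 4.19 and 4.17 in LNCaP-ERG and 4.06 and 4.28 in LNCaP-vector.

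IDI1, which interconverts the isoprenoid units, had 9.46 and 9.53 in LNCaP-ERG, against 9.58 and 9.75 in LNCaP-vector (log2 fold change -0.17, standard error 0.09). All 4 of its probe sets were lower without overlap, at -0.17, -0.17, -0.27 and -0.37. The first 3 of them carry the suffix that Affymetrix gives to sets with cross-hybridising probes, and the last is dim. FDPS, which makes farnesyl diphosphate, had 10.05 and 9.99 in LNCaP-ERG, against 10.10 and 10.10 in LNCaP-vector. This was a log2 fold change of -0.08 whose 95% interval ran from -0.28 to 0.12. The other probe set of FDPS was below background and higher without overlap, at 0.15. The lower values of this stretch were thus in ACAT2, MVK, IDI1 and FDPS, with differences of -17.8% for MVK to -5.4% for FDPS relative to the vector arrays, and none passed after adjustment. Single arrays moved 3 of them by more than 1.5 times, ACAT2 to -0.10 without the first vector array, IDI1 to -0.09 without the second vector array and FDPS to -0.05 without the second LNCaP-ERG array.

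The 10 measured genes of the squalene and sterol steps showed no overlap at all at their brightest probe sets: 8 were lower and 2 were higher in LNCaP-ERG. Among all genes above background in both groups, 23.3% were lower and 23.7% higher without overlap. SQLE, the squalene epoxidase and a flux-limiting step, had 8.47 and 8.36 in LNCaP-ERG, against 8.63 and 8.65 in LNCaP-vector. Its log2 fold change was -0.22 (standard error 0.08, unadjusted p = 0.0406, adjusted p = 0.490 by limma), and a second bright probe set had -0.25. LSS, which closes the sterol ring, had 8.39 and 8.29 in LNCaP-ERG, against 8.41 and 8.55 in LNCaP-vector (log2 fold change -0.14). The other probe sets of LSS were below background and went the other way, at 0.23 with overlap and 0.19 without. CYP51A1, the lanosterol demethylase, had 8.98 and 8.95 in LNCaP-ERG, against 9.21 and 9.16 in LNCaP-vector. Its log2 fold change was -0.22 (standard error 0.08, unadjusted p = 0.0346, adjusted p = 0.469 by limma), with -0.24 at its other probe set. For SQLE and CYP51A1 the difference between the group means was wider than the difference within either group. This held for 17 of the 27 genes and so was not particular to SQLE and CYP51A1. No share over all genes is set beside it.

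MSMO1, the methylsterol oxidase, had 9.84 and 9.84 in LNCaP-ERG, against 9.96 and 9.99 in LNCaP-vector. NSDHL, which acts with it in removing the methyl groups, had 7.04 and 7.05 in LNCaP-ERG, against 7.16 and 7.25 in LNCaP-vector. Its second probe set overlapped, at -0.03. SC5D, the sterol desaturase, had 8.78 and 8.91 in LNCaP-ERG, against 9.01 and 9.10 in LNCaP-vector (log2 fold change -0.21, unadjusted p = 0.0603, adjusted p = 0.535 by limma), and its other probe set, of the plain kind, was below background, at 0.06. EBP, the sterol isomerase, had 10.17 and 10.13 in LNCaP-ERG, against 10.22 and 10.20 in LNCaP-vector (log2 fold change -0.06). DHCR7, the last reductase of one branch, had 8.53 and 8.39 in LNCaP-ERG, against 8.59 and 8.58 in LNCaP-vector (log2 fold change -0.13). These 2 had the smallest fold changes of the 8, and their remaining bright probe sets had -0.17 and -0.21. Without the second LNCaP-ERG array EBP was at -0.03, DHCR7 at -0.06 and LSS at -0.09. LSS was at -0.07 without the second vector array, and DHCR7 at -0.19 without the first LNCaP-ERG array.

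The 2 genes on the opposite side both encode reductases of this stretch. TM7SF2, a sterol reductase that acts after CYP51A1, had 8.99 and 8.86 in LNCaP-ERG, against 8.70 and 8.68 in LNCaP-vector (log2 fold change 0.24, standard error 0.09, unadjusted p = 0.0381, adjusted p = 0.481 by limma). HSD17B7, the ketoreductase that acts with MSMO1 and NSDHL, had 9.32 and 9.37 in LNCaP-ERG, against 9.12 and 9.08 in LNCaP-vector (log2 fold change 0.25, standard error 0.08, unadjusted p = 0.0215, adjusted p = 0.434 by limma). Each is read by 1 probe set, and that of HSD17B7 carries the same cross-hybridisation suffix. Over all 17 synthesis enzymes the median log2 fold change was -0.14, with 14 below 0 and 3 above. Of all genes above background, 5255 of 10705 were below 0.

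**Figure D2:**
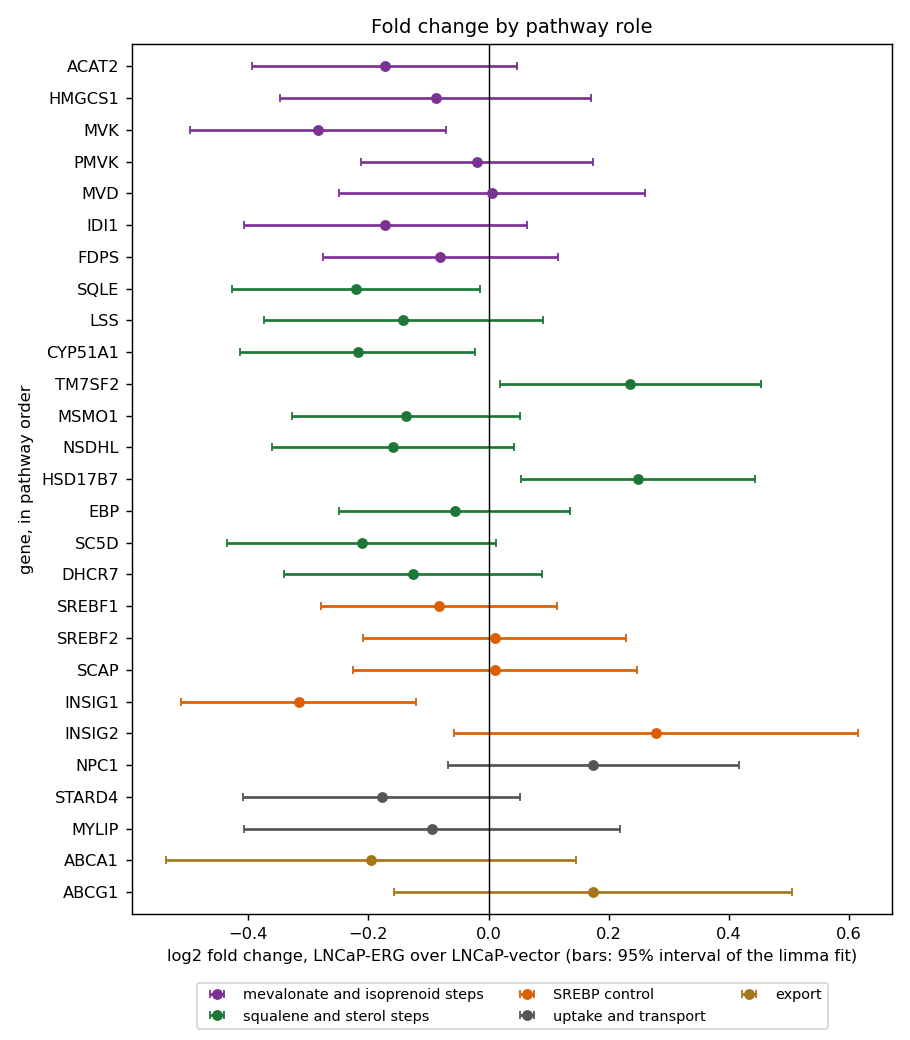
Log2 fold change of LNCaP-ERG over LNCaP-vector (x axis) for the 27 measured genes (y axis, in pathway order, coloured by role). Points are the limma estimates and bars their 95% intervals, from 2 arrays per group. The bars of 6 genes leave out 0, those of INSIG1, MVK, SQLE and CYP51A1 on the lower side and of HSD17B7 and TM7SF2 on the higher, before any adjustment.

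Of the genes that control SREBP, INSIG1 had the lowest fold change of the whole list. It had 9.74 and 9.80 in LNCaP-ERG, against 10.09 and 10.08 in LNCaP-vector, a difference of -19.7% (log2 fold change -0.32, standard error 0.08, 95% interval -0.51 to -0.12, unadjusted p = 0.00845, adjusted p = 0.368 by limma). It ranked 312 from the lowest among the 10705 genes above background. The second probe set of INSIG1 had 8.89 and 9.01 in LNCaP-ERG, against 9.34 and 9.46 in LNCaP-vector, and the third had 6.59 and 6.50 in LNCaP-ERG, against 6.89 and 6.98 in LNCaP-vector. All 3 probe sets were therefore lower on both LNCaP-ERG arrays, at -0.32, -0.45 and -0.39. INSIG2, its paralog, went the other way and had the highest fold change of the list. It had 7.48 and 7.82 in LNCaP-ERG, against 7.31 and 7.42 in LNCaP-vector (log2 fold change 0.28, standard error 0.13, unadjusted p = 0.0874, adjusted p = 0.568 by limma). The LNCaP-ERG arrays were farther apart (SD 0.24) than the vector arrays (SD 0.08), and the log2 fold change of INSIG2 was 0.11 without the second and 0.45 without the first LNCaP-ERG array.

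**Figure D3:**
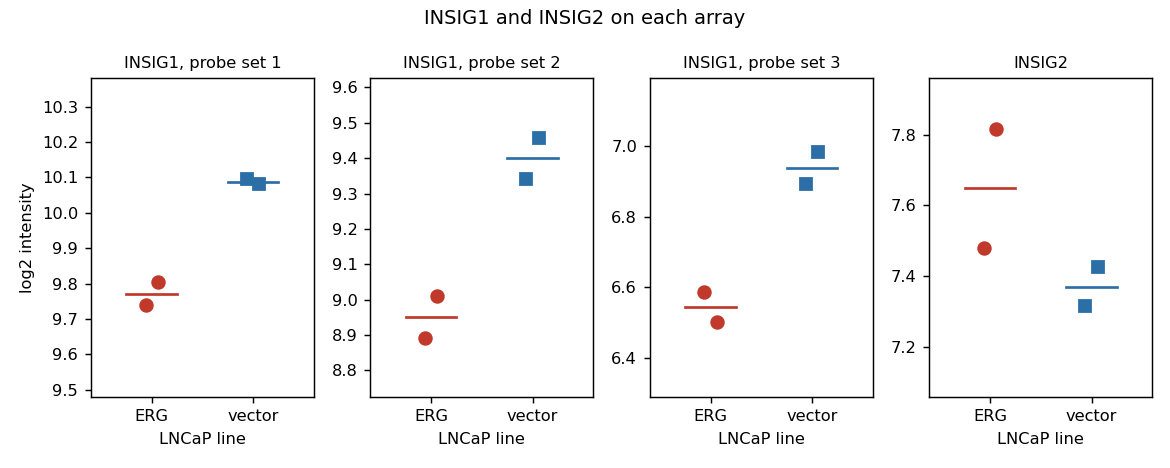
Log2 intensity (y axis, each panel spanning the same range around its mean) of the 3 probe sets of INSIG1 and the single probe set of INSIG2 in LNCaP-ERG and LNCaP-vector (x axis). Points are single arrays and lines the group means. The LNCaP-ERG arrays lie below the vector arrays in the 3 INSIG1 panels, with log2 fold changes of -0.32 to -0.45, and above them for INSIG2, at 0.28.

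The genes for the transcription factors and their escort differed little. SREBF2, which encodes the SREBP form mainly tied to cholesterol genes, had 8.95 and 8.81 in LNCaP-ERG and 8.85 and 8.88 in LNCaP-vector, a log2 fold change of 0.01 with a 95% interval of -0.21 to 0.23. Its other probe sets had -0.06 and 0.05, all with overlapping groups. SREBF1, which encodes the form tied more to fatty acid genes, had 9.74 and 9.67 in LNCaP-ERG, against 9.78 and 9.79 in LNCaP-vector. Its log2 fold change was -0.08 (95% interval -0.28 to 0.11), and -0.05 without the second LNCaP-ERG array. The second probe set of SREBF1, also above background, overlapped, at -0.004. SCAP had 8.62 and 8.44 in LNCaP-ERG and 8.55 and 8.50 in LNCaP-vector, with 0.01 (95% interval -0.23 to 0.25). The arrays read RNA, and the cleaved, active SREBP proteins were not measured.

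Of the uptake and transport genes, NPC1, which releases cholesterol from lysosomes, had 7.90 and 7.73 in LNCaP-ERG, against 7.59 and 7.69 in LNCaP-vector (log2 fold change 0.17, standard error 0.10, adjusted p = 0.615 by limma). Its other probe set was below background. STARD4, a sterol carrier that is an SREBP target, had 7.55 and 7.60 in LNCaP-ERG, against 7.67 and 7.83 in LNCaP-vector (log2 fold change -0.18, standard error 0.09, adjusted p = 0.591 by limma). NPC1 thus stood on the higher and STARD4 on the lower side, without overlap in either. NPC1 was at 0.09 when the first LNCaP-ERG array was left out, and STARD4 at -0.10 when the second vector array was. MYLIP encodes the ubiquitin ligase, induced by the oxysterol receptor LXR, that degrades lipoprotein receptors. Its brightest probe set overlapped, at 7.05 and 7.37 in LNCaP-ERG and 7.31 and 7.30 in LNCaP-vector. Of its 4 probe sets above background, 2 were lower without overlap (-0.28 and -0.30) and 2 overlapped (-0.09 and -0.01).

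The export genes, both LXR targets, were dim. ABCA1, the cholesterol exporter to lipid-poor apolipoprotein, was below background in both groups at each of its 4 probe sets, with log2 fold changes of -0.20, -0.05, 0.06 and 0.38. ABCG1, the exporter to lipoprotein particles, was just above background at its brightest probe set, at 4.88 and 5.23 in LNCaP-ERG and 4.90 and 4.86 in LNCaP-vector. Its probe sets had 0.17, -0.16, -0.12 and 0.43. The probe sets of either exporter thus differed in sign, and no direction can be given for them.

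**Figure D4:**
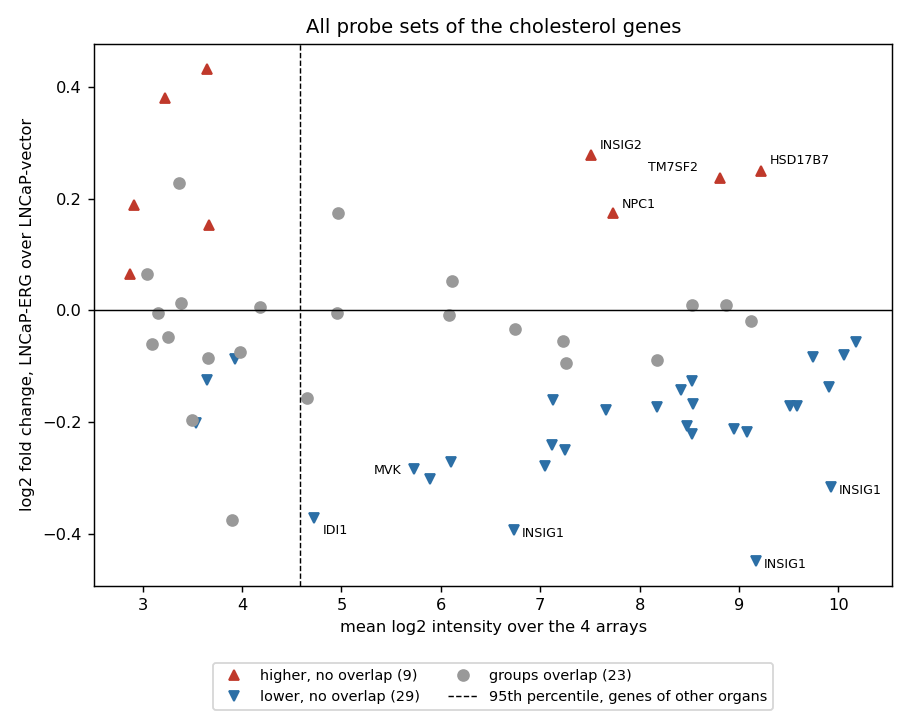
Log2 fold change of LNCaP-ERG over LNCaP-vector (y axis) against the mean log2 intensity over the 4 arrays (x axis) for the 61 probe sets of the cholesterol genes. Triangles pointing down are lower without overlap (29), triangles pointing up higher without overlap (9) and circles overlapping (23), and a dashed line marks the background level of 4.58. Right of that line the higher ones are INSIG2, TM7SF2, HSD17B7 and NPC1.

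At the level of probe sets, 40 of the 61 lay above background in both groups. Of these, 25 were lower without overlap, where 25.1% of all such probe sets were, and 4 were higher, where 20.7% were. Of the 10 genes with several probe sets above background, 9 had all of them on the same side of 0, and SREBF2 did not. Probe sets of a gene share its RNA and are not independent.

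Sterol-related genes outside the list were taken from further lists, of which 47 of 50 genes were measured, and none passed the adjusted threshold. They were lower without overlap for 15 and higher for 4, beside the 19.1% and 21.7% of all genes given above, with a median log2 fold change of -0.04. In the isoprenoid branch, where GGPS1 makes the geranylgeranyl unit and PGGT1B attaches it to proteins, 5 of 10 were lower without overlap and none higher (median -0.13). Among sterol carriers and lipoprotein receptors, 3 of 11 were higher and 3 lower without overlap. Of the lower ones, GRAMD1B was below background, and GRAMD1C was above it, at a log2 fold change of -0.22. GRAMD1A, which moves cholesterol from the plasma membrane to the endoplasmic reticulum, had 7.28 and 7.19 in LNCaP-ERG, against 6.85 and 6.92 in LNCaP-vector (log2 fold change 0.35, standard error 0.08, unadjusted p = 0.00709, adjusted p = 0.368 by limma). Its gap was larger than that of any of the 27 genes at their brightest probe sets.

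Among genes of SREBP processing and sterol-regulated degradation, 3 of 9 were lower without overlap, and 1 was higher. That gene was RNF145, a sterol-responsive ubiquitin ligase, named here after its values were seen, with 10.68 and 10.74 in LNCaP-ERG, against 10.35 and 10.44 in LNCaP-vector (adjusted p = 0.375 by limma). Of 7 genes of LXR signalling and oxysterol enzymes, 2 were lower without overlap, with ABCG4 of these below background, and none was higher. Lower without overlap were 1 of 4 esterification genes and 1 of 6 SREBP2 targets outside sterol synthesis, with none higher in either list. Over all genes, 19.1% were lower, 21.7% were higher and 11579 of 19583 overlapped.

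Of the 12 luminal prostate and LNCaP markers, 3 were higher without overlap in LNCaP-ERG, 3 were lower and 6 overlapped, with a median log2 fold change of 0.03. Among all genes above background in both groups, 23.7% were higher and 23.3% lower without overlap, shares much like those of the markers. The higher markers were KLK4, FOLH1 and ACP3, at 0.06, 0.08 and 0.56 (adjusted p of ACP3 = 0.259 by limma). The lower markers were KLK3, KLK2 and TMPRSS2, at -0.13, -0.29 and -0.20. The median of 17 housekeeping genes was 0.004.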

How the data were processed

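RNA of LNCaP cells carrying the ERG or the control lentivirus was measured on 4 Affymetrix arrays, 2 per group. Per the methods of the study, dChip served for the images, RMAexpress for normalisation and Multiexperiment Viewer for annotation. Neither versions nor options of these programs are stated in the sources. The deposited table holds 1 intensity per probe set, on a scale taken as linear given medians of 14.0 to 14.4 and maxima of 14962 to 15344. Intensities were converted to log2 after removing 2 of 51965 probe sets that lacked a value. The platform annotation gave 1 gene for 39466 probe sets, several for 838 and none for 11661; the last 2 kinds were not used. Each gene was represented by its brightest probe set, by the mean of all arrays (19583 genes).

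Groups were compared by limma 3.58.1 (lmFit and eBayes, group only, 2 residual and 3.23 prior degrees of freedom) in R 4.3.3, with Benjamini-Hochberg adjustment over all genes and a threshold of 0.05. The fit was tested in 10 runs of simulated arrays with 200 changed genes each. At the threshold it recovered 0.294% of genes with a log2 change of 0.3, 77.4% at 1 and 97.9% at 2. Background was the 95th percentile of 37 measured genes of other organs. Motifs were searched in the 250 bases before RefSeq starts with Python 3.11.15, and plots drawn with matplotlib 3.10.9. The genes and lists were chosen with earlier results of these data known. All measured genes of the list are named, with values on each array except for ABCA1. Related genes are named with values where they did not overlap at an unadjusted p under 0.01. RNF145 and GRAMD1C, which missed that rule, were added after their values were seen. Alternatives were trended and robust moderation, dim genes left out, other choices of probe set, quantile normalisation again, housekeeping centring, the methods' t-test, leaving out single arrays, and blocking on the replicate number. Some items are not reported here. Arrays have no read depth, and their number limits the precision.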

Additional observations from a re-analysis of the deposited data

How the results depend on the processing

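No cholesterol gene had an adjusted p under 0.05 in any alternative. By the methods' t-test before adjustment, 1 was higher and 4 were lower, where 4.38% of all genes were higher and 3.76% lower. The number of genes called among all genes, 2, was 89 with trended and robust moderation, 54 without dim genes, 14 with the mean of probe sets, 7 with housekeeping centring, and 0 with all probe sets together, with the replicate block, with the methods' t-test and with any 1 array left out. Where 0 of all genes were called, the lack of calls among the cholesterol genes says nothing about their stability. With 1 array left out, the spread comes from the complete group only. The lowest adjusted p of INSIG1 over limma settings with all arrays was 0.0638. With the mean of probe sets, 13 genes were lower without overlap and 6 higher, where 19.9% of all genes were lower and 20% higher. With plain probe sets 11 were lower and 4 higher, of 20 measured, where 19.3% and 19.8% of all genes were. Counted over all probe sets together, 29 were lower and 9 higher, since 61 probe sets stand in place of 27 genes. Among all probe sets that name a single gene, 20.1% were lower and 18.9% higher. With single arrays left out, 16 to 19 genes were lower without overlap and 5 to 7 higher, where 31.2% to 35.8% of all genes were lower and 32.9% to 40.8% higher, and the median log2 fold change was -0.14 to -0.059, the ends being those without the first and without the second LNCaP-ERG array.

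Signs turned for these genes. With the mean of probe sets, which takes in dim ones, FDPS was 0.037, LSS 0.092 and ABCA1 0.051. With plain probe sets SC5D was 0.064, and with quantile normalisation again MVD was -0.017. With single arrays left out, PMVK ran from -0.048 to 0.0095, MVD from -0.10 to 0.12, SREBF2 from -0.061 to 0.081, SCAP from -0.078 to 0.099 and MYLIP from -0.25 to 0.065. The cause was not tested.

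The replicate numbers are shared between the groups, but nothing says that they pair the arrays. Deviations of same-numbered arrays from their group means correlated at 0.077 over all genes and at 0.12 over the 10705 genes above background in both groups. The replicate block cannot move a log2 fold change here, because each replicate number occurs once in both groups. The median of the cholesterol genes was thus -0.09 by design, which says nothing about pairing. With the block, 0 genes of the whole array were called. The 95% intervals of single genes reached 0.19 to 0.34 on either side before adjustment. Differences beyond their own interval, such as that of INSIG1, were still not called after adjustment with 2 arrays per group.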
